A study of Caenorhabditis elegans with 24 samples.

Results

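The genes described here encode components of the germ plasm of the nematode Caenorhabditis elegans. They were taken by name: the P granule genes pgl-1 (WBGene00003992), pgl-2 (WBGene00003993), pgl-3 (WBGene00003994), glh-1 (WBGene00001598), glh-2 (WBGene00001599), glh-3 (WBGene00001600) and glh-4 (WBGene00001601), and the nanos genes nos-1 (WBGene00003783), nos-2 (WBGene00003784) and nos-3 (WBGene00003785). A probe row was found for 9 of the 10 genes, out of 15208 gene probes, and nos-2 is not analysed here. The array's probes carry WormBase gene IDs without names, so the pairing of each name with its ID is the one that defined the list. Each gene had 1 probe.

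P granules are condensates of RNA and protein that mark the germline of C. elegans and pass to the germline blastomeres during the first embryonic divisions. The PGL proteins form their scaffold, the GLH proteins are Vasa-like DEAD-box RNA helicases that help to hold PGL proteins at the nuclear envelope, and the nanos proteins are zinc-finger translational regulators needed for the primordial germ cells or for the switch from sperm to oocytes. In a 4-cell embryo such mRNAs are mainly maternal, made in the mother's germline. Worms lacking pgl-1 or glh-1 are known to lose fertility more often at elevated temperature.

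Messenger RNA was measured on 24 one-colour arrays, 1 for each pool of 50 embryos at the 4-cell stage. Both strains, the wild-type laboratory strain N2 and HC445, were sampled with 3 pools in each of 4 conditions. HC445 carries the sid-1 allele qt9, and its labels suspect the loss of haf-6; sid-1 encodes a channel for double-stranded RNA and haf-6 an ABC half-transporter, both linked to RNA interference. In generation 2 the embryos had 25 °C mothers or 20 °C mothers, and all their grandparents had lived at 20 °C. In generation 3 the groups had 25 °C grandparents or 20 °C grandparents, and every mother had lived at 20 °C. All worms had been fed a Bacillus subtilis strain that does not sporulate and had been kept at 20 °C for at least 3 generations before the experiment. Pools of whole embryos do not separate the cells of an embryo, so fewer cells with a transcript and less of it per cell cannot be told apart. Whether the 3 pools of a group came from separate cultures is not stated in the labels. The p-values therefore rest on the spread between pools, which may be technical.

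Values are log2 of the scanner's processed signal minus log2 of the array's own 75th percentile, a scale on which 0 is that percentile and a step of 1 is a doubling. They compare arrays for 1 probe and not probes with each other. On the 24 arrays the 75th percentile lay between 30282 and 45402, and between 9109 and 13075 probes were well above background. The files give 14 slides and 3 scan days, each scan day holding 1 array of every group, and the replicate number follows the scan day. The N2 20 °C array of replicate 3 in generation 2 had the lowest array quality weight, 0.289, against 0.642 for the next. Labels note or suspect a 10-fold spike-in concentration for 6 arrays, 5 of them with 25 °C ancestors, and 1 slide held all 4 replicate 3 arrays of the 25 °C groups with no 20 °C array beside them. On 3 of these 4 arrays many probes shared the array's lowest processed signal, against 1 probe on every other array. They numbered 1518 for N2 and 1976 for HC445 with 25 °C mothers, and 1653 for N2 with 25 °C grandparents. Whether this bears on the values below was not tested.

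All 9 measured genes were detected in every group. Each was well above background on all 24 arrays, with 0 of 216 spots saturated and 0 rejected as outliers, so each fold change below rests on measured signals on both sides. Processed signals of these probes ran from 1451 to 305037. The whole range over the 24 arrays was narrow for most genes: 1.38-fold for pgl-1, 1.54-fold for pgl-2, 1.59-fold for nos-1, 1.63-fold for glh-4 and 1.81-fold for glh-3. It was wider for glh-1 (2.48-fold), glh-2 (2.55-fold), pgl-3 (2.66-fold) and nos-3 (6.66-fold). The residual SD of pgl-1 within groups was 0.104 on the log2 scale, against a median of 0.37 over all probes tested, and 0.619% of those probes had a smaller one. Spread was not compared at matched brightness.

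**Figure D1:**
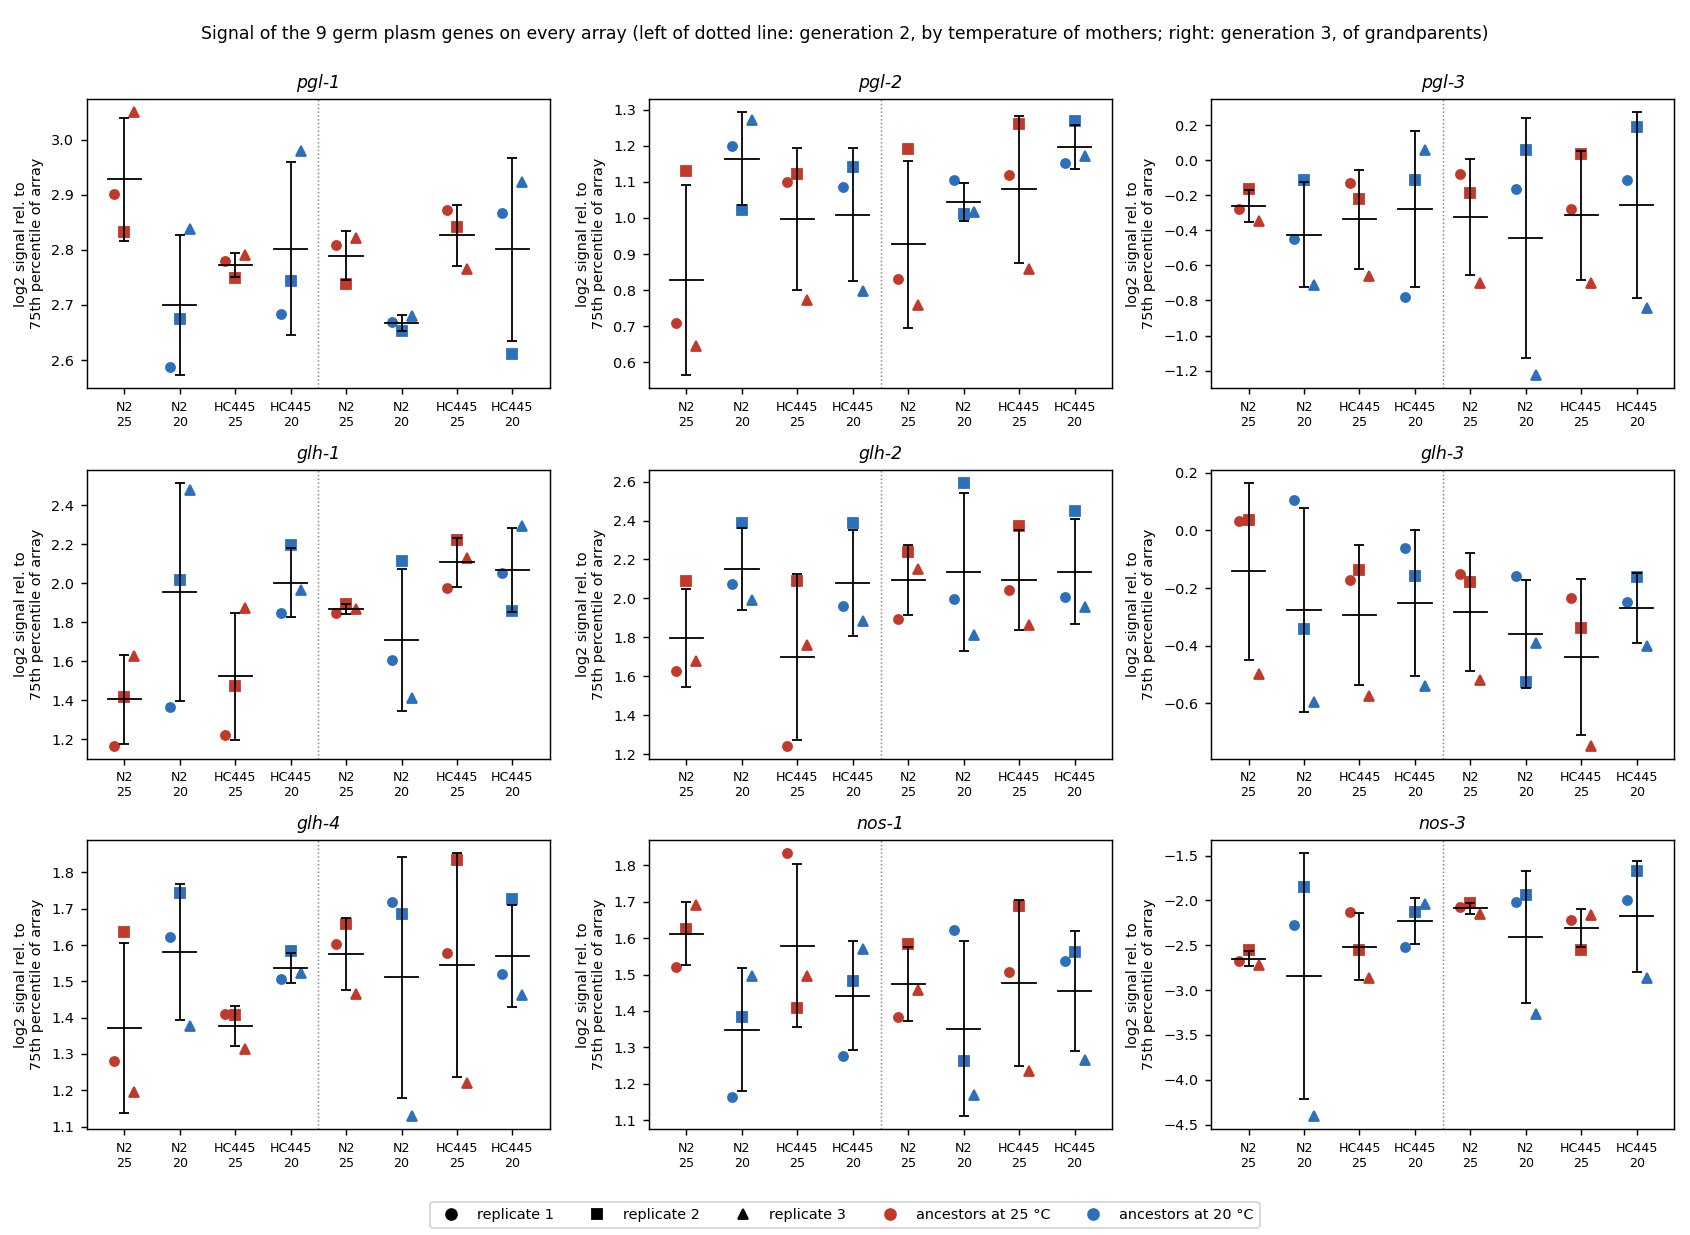
Signals of the 9 genes (log2, with each array's 75th percentile as 0), 1 panel a gene, each with its own scale. Points are single arrays with 25 °C (red) or 20 °C (blue) ancestors, their shape marks the replicate number, which is also the scan day, and black bars show the mean and SD of 3 arrays, with generation 2 left and generation 3 right of the dotted line. The glh-1 arrays of 25 °C mothers lie lower than most others, and 1 N2 20 °C array of nos-3 stands at -4.40.

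The first comparison asked whether the temperature of the mothers changed these maternal mRNAs. In embryos of 25 °C mothers glh-1 fell, and glh-2 and glh-4 lay lower by smaller amounts that did not pass the test, while the PGL genes, glh-3 and the nanos genes showed no change that passed. The test was limma with Benjamini-Hochberg adjustment over all 11637 probes tested, at 0.05, without a term for the scan day. With both strains pooled, 1 of the 9 genes passed, against 14% of all probes tested, and as a fall it stands against 8.52% of probes that fell. A share of 1 in 9 is near that background, so the count says nothing particular about the germ plasm genes. With the scan day as a block glh-2 passed as well (limma adjusted p = 0.00269), so that 2 of the 9 genes did, beside 2666 of the 11637 probes tested. That share of the 9 genes is also near its background. The median log2 fold change of the 9 genes was -0.04, against -0.07 over all probes tested, and the median size regardless of sign was 0.17, against 0.26.

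Among the helicase genes, glh-1 encodes the best-studied Vasa relative of P granules. In N2 its log2 signal was 1.17, 1.42 and 1.63 on the arrays of 25 °C mothers, against 1.36, 2.02 and 2.48 on those of 20 °C mothers. In HC445 it was 1.22, 1.48 and 1.87 after 25 °C mothers, against 1.85, 2.20 and 1.96 after 20 °C mothers. The groups overlapped: 2 of the 6 arrays of 25 °C mothers lay below all 6 of 20 °C mothers, and the others lay within the range of 20 °C mothers.

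The means for glh-1 were 1.46 ± 0.26 after 25 °C mothers and 1.98 ± 0.37 after 20 °C mothers (SD, n = 6 each). The log2 fold change was -0.51 ± 0.16 (SE; 95% interval -0.84 to -0.19), which is 0.70-fold, with a limma adjusted p of 0.0293. Arrays of one strain and scan day can be set against each other in 6 pairs, and glh-1 was lower after 25 °C mothers in 6 of 6, by -0.09 to -0.85. The mean difference was -0.41 on the scan day of replicate 1, -0.66 on that of replicate 2 and -0.47 on that of replicate 3. How many of all probes were lower in 6 of 6 pairs is not given here, for glh-1 or for the genes below.

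In the reported fit, which has no term for the scan day, the call on glh-1 was close to the threshold. It also depended on how the slide was modelled. A block for the scan day gave a limma adjusted p of 0.0079, and slide as a random block gave 0.0211 at a log2 fold change of -0.50. An array that is alone on its slide adds nothing to a fit with a fixed term for each slide. In generation 2 the N2 20 °C array of replicate 3 and the HC445 25 °C array of replicate 1 were alone. So were the HC445 20 °C arrays of replicates 1 and 2. Fitting a fixed term for each slide leaves 3 residual degrees of freedom. The log2 fold change was then -0.13 ± 0.16 (SE; limma adjusted p = 0.775), and 41 probes in all passed. The only slide holding both temperatures of a strain in generation 2 carried the N2 arrays of replicate 1, whose difference was -0.20. When the 6 arrays noted for spike-in were dropped the log2 fold change was -0.63 (limma adjusted p = 0.095), and without the slide shared by the 25 °C arrays of replicate 3 it was -0.66 (limma adjusted p = 0.0229). Dropping the noted arrays left replicate 2 as the only N2 array of 25 °C mothers. None of the refits with arrays left out, these and those that follow, had a term for the scan day. Leaving out a whole replicate number ended the call each time, with limma adjusted p of 0.0622 without replicate 1, 0.268 without replicate 2 and 0.055 without replicate 3, at log2 fold changes of -0.57, -0.44 and -0.54. Leaving out any 1 of 6 single arrays also ended it, with limma adjusted p between 0.0557 and 0.0837 and log2 fold changes between -0.38 and -0.50. These were the N2 20 °C arrays of replicates 2 and 3, the N2 25 °C array of replicate 1, the HC445 20 °C array of replicate 2 and the HC445 25 °C arrays of replicates 1 and 2, all of generation 2.

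For glh-2, a second Vasa-like helicase gene closely related to glh-1, the log2 signal in N2 was 1.63, 2.09 and 1.68 after 25 °C mothers, against 2.07, 2.39 and 1.99 after 20 °C mothers. HC445 embryos had 1.24, 2.09 and 1.76 after 25 °C mothers, against 1.96, 2.39 and 1.88 after 20 °C mothers. In both strains 2 of the 3 arrays of 25 °C mothers lay below all arrays of 20 °C mothers, and the array of replicate 2 did not. The log2 fold change over both strains was -0.37 ± 0.16 (SE; 95% interval -0.69 to -0.04; 0.78-fold), with an unadjusted p of 0.0283 and a limma adjusted p of 0.127, so it did not pass without a term for the scan day.

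All 6 pairs of one strain and scan day were lower after 25 °C mothers for glh-2, by -0.12 to -0.72. The gene passed in 2 of the 38 refits with another processing choice or with arrays left out: with the scan-day block given above and with slide as a random block (-0.42, limma adjusted p = 0.0309). With slide as a fixed block its log2 fold change was -0.30 (limma adjusted p = 0.381). The files give no probe sequences, so how far the glh-1 and glh-2 probes respond to each other's transcript was not tested.

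The larger helicase gene glh-4 had log2 signals of 1.28, 1.64 and 1.19 in N2 after 25 °C mothers, against 1.62, 1.74 and 1.38 after 20 °C mothers. HC445 embryos had 1.41, 1.41 and 1.31 after 25 °C mothers, against 1.51, 1.58 and 1.52 after 20 °C mothers. There the 3 arrays of 25 °C mothers lay below the 3 of 20 °C mothers without overlap. How many of all probes separated in this way is not given here, so this is a description only. Over both strains the log2 fold change was -0.19 ± 0.12 (SE; 95% interval -0.42 to 0.05; limma adjusted p = 0.329), with 6 of 6 pairs lower, by -0.10 to -0.34. It did not pass in any of the 38 refits.

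The remaining helicase gene, glh-3, whose protein lacks the phenylalanine-glycine repeats of the other GLH proteins, had a log2 fold change of 0.05 ± 0.14 (SE; 95% interval -0.25 to 0.34; limma adjusted p = 0.886). Its means were -0.22 ± 0.26 after 25 °C mothers and -0.26 ± 0.28 after 20 °C mothers (SD, n = 6 each), and 3 of 6 pairs were lower. The signs of glh-1, glh-2 and glh-4 were negative in the 38 refits, the other scalings included, and that of glh-3 turned in 3 of them.

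**Figure D2:**
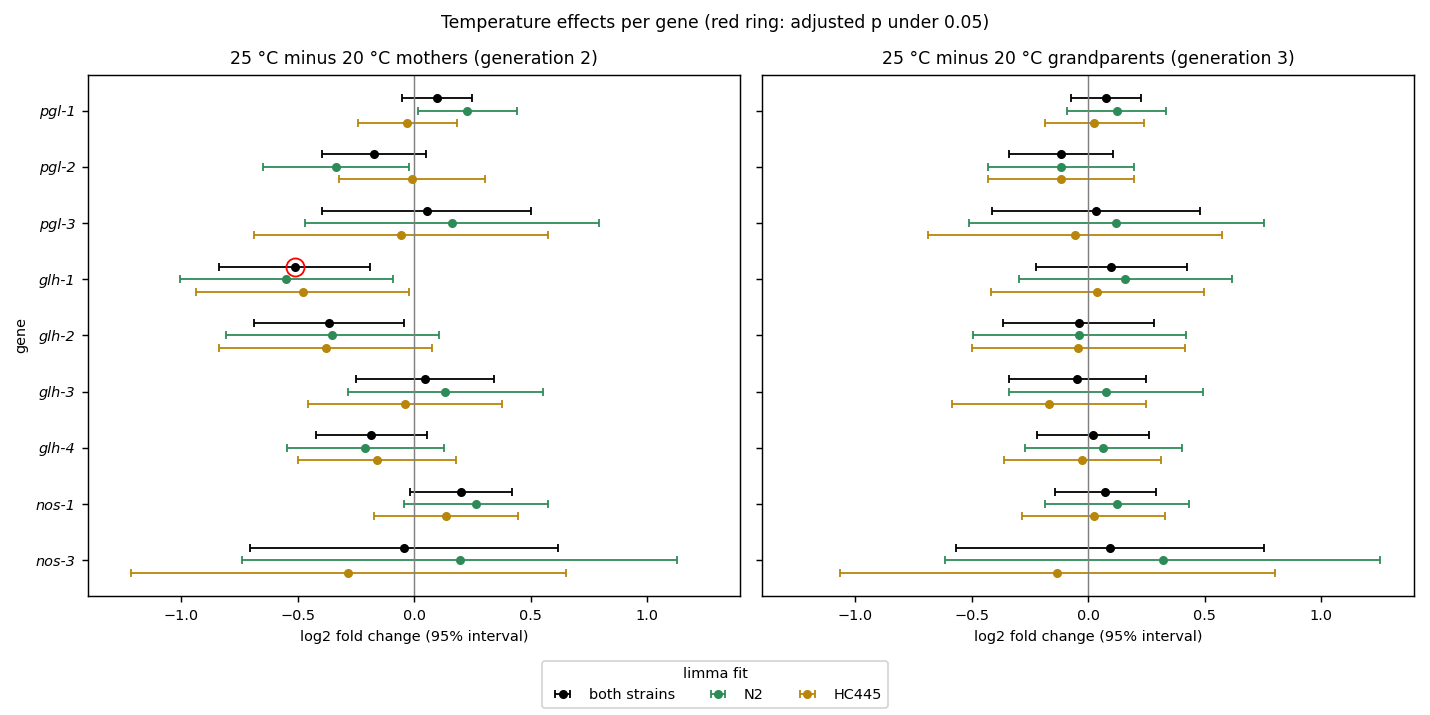
Log2 fold changes (25 °C minus 20 °C) with 95% intervals from limma for the 9 genes, by temperature of the mothers (left) and of the grandparents (right), for both strains together, N2 and HC445. The red ring marks the only call, glh-1 in both strains together at -0.51, and the intervals of the grandparental effects all include 0.

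The PGL genes encode the scaffold proteins of P granules. PGL-1 and PGL-3 overlap in function, and PGL-2 is found mainly in the larval and adult germline. In N2 the log2 signal of pgl-1 was 2.90, 2.83 and 3.05 after 25 °C mothers, against 2.59, 2.68 and 2.84 after 20 °C mothers. HC445 embryos had 2.78, 2.75 and 2.79 after 25 °C mothers, against 2.68, 2.74 and 2.98 after 20 °C mothers. In N2 2 of the 3 arrays of 25 °C mothers lay above all arrays of 20 °C mothers, whereas in HC445 the groups overlapped.

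Over both strains pgl-1 had a log2 fold change of 0.10 ± 0.07 (SE; 95% interval -0.05 to 0.25; limma adjusted p = 0.427), an interval of 0.97-fold to 1.19-fold. In N2 alone the value was 0.23 ± 0.10 (SE; unadjusted p = 0.0364; limma adjusted p = 0.241), and in HC445 alone -0.03 ± 0.10 (SE; limma adjusted p = 0.941). The N2 value of pgl-1 was smaller under other scalings, 0.16 with quantile normalization or the deposited values (unadjusted p = 0.155 for both) and 0.05 with normexp and quantile normalization (unadjusted p = 0.744), and 0.13 without the arrays noted for spike-in. The difference between the strains (HC445 minus N2) was -0.26 ± 0.14 (SE; 95% interval -0.56 to 0.04; unadjusted p = 0.0885) and did not pass.

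The log2 signal of pgl-2 was 0.71, 1.13 and 0.64 in N2 after 25 °C mothers, against 1.20, 1.02 and 1.27 after 20 °C mothers. In HC445 it was 1.10, 1.12 and 0.77 after 25 °C mothers, against 1.09, 1.14 and 0.80 after 20 °C mothers, values that match closely on each scan day. The N2 log2 fold change was -0.34 ± 0.15 (SE; unadjusted p = 0.0368; limma adjusted p = 0.242), and that of HC445 -0.01 ± 0.15 (SE; limma adjusted p = 0.986). The low N2 arrays of pgl-2, at 0.71 and 0.64, are both noted for spike-in. Without the noted arrays the N2 value was -0.03, with replicate 2 left as the only N2 array of 25 °C mothers. Whether the spike-in bears on the low values was not tested. The difference between the strains with all arrays, 0.33 ± 0.21 (SE; 95% interval -0.12 to 0.77; unadjusted p = 0.143), did not pass. Over both strains the value was -0.17 ± 0.11 (SE; limma adjusted p = 0.323).

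For pgl-3 the spread among arrays of one group was wide. The log2 signal in N2 was -0.28, -0.16 and -0.34 after 25 °C mothers, against -0.45, -0.11 and -0.71 after 20 °C mothers. HC445 embryos had -0.13, -0.22 and -0.66 after 25 °C mothers, against -0.78, -0.11 and 0.06 after 20 °C mothers. The groups overlapped in both strains, and the pooled log2 fold change was 0.05 ± 0.22 (SE; 95% interval -0.39 to 0.50; limma adjusted p = 0.919). As folds, that interval runs from 0.76 to 1.41.

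Among the nanos genes, nos-1 acts with nos-2 in the survival and development of the primordial germ cells. Its log2 signal was 1.52, 1.63 and 1.69 in N2 after 25 °C mothers, against 1.16, 1.38 and 1.50 after 20 °C mothers. In HC445 it was 1.83, 1.41 and 1.50 after 25 °C mothers, against 1.28, 1.48 and 1.57 after 20 °C mothers. The N2 groups did not overlap and the HC445 groups did, again without a count over all probes.

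Over both strains nos-1 had a log2 fold change of 0.20 ± 0.11 (SE; 95% interval -0.02 to 0.42; 1.15-fold), with an unadjusted p of 0.0699 and a limma adjusted p of 0.23, and 4 of 6 pairs were higher. It was the highest of the 9 values, its sign was positive in the 38 refits, and it passed in 0 of them.

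The gene nos-3, whose protein acts with FBF proteins in the switch from sperm to oocyte production, was the most variable of the 9. In N2 its log2 signal was -2.68, -2.55 and -2.72 after 25 °C mothers, against -2.27, -1.85 and -4.40 after 20 °C mothers. HC445 embryos had -2.12, -2.55 and -2.87 after 25 °C mothers, against -2.52, -2.13 and -2.04 after 20 °C mothers. The array at -4.40 is the one with the lowest quality weight. With all arrays the log2 fold change over both strains was -0.04 ± 0.32 (SE; limma adjusted p = 0.956). Without that array it was -0.43 ± 0.23 (SE; limma adjusted p = 0.241) over both strains and -0.58 ± 0.34 (SE; limma adjusted p = 0.389) in N2, against 0.20 ± 0.45 (SE) in N2 with it. So 1 array set the sign of nos-3 in N2, and with or without it the gene did not pass.

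Each strain taken alone gave 0 calls among the 9 genes for the temperature of the mothers (limma, Benjamini-Hochberg), against 5.47% of probes in N2 and 5.08% in HC445. At an unadjusted p under 0.05 there were 3 genes in N2 (glh-1, pgl-1 and pgl-2) and 1 in HC445 (glh-1). Over all probes tested the shares at that cut were 17.7% in N2 and 16.6% in HC445. For glh-1 the log2 fold change was -0.55 ± 0.22 (SE; limma adjusted p = 0.172) in N2 and -0.48 ± 0.22 (SE; limma adjusted p = 0.27) in HC445. The N2 value rested on single arrays: it was -0.84 without replicate 1 of the 20 °C mothers, which passed (limma adjusted p = 0.019), and -0.29 without replicate 3 (limma adjusted p = 0.523). Slide as a random block also called it in N2 (-0.55, limma adjusted p = 0.0487). In HC445 slide as a fixed block turned the sign of glh-1, to 0.10 ± 0.26 (SE). Among the HC445 arrays of 20 °C mothers, only replicate 3 shared its slide with another array, so that value rests on little.

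For glh-2 the log2 fold change was -0.35 in N2 and -0.38 in HC445, and for glh-4 it was -0.21 in N2 and -0.16 in HC445. Dropping the arrays noted for spike-in left replicate 2 as the only N2 array of 25 °C mothers, which the fit assumes to vary like the other groups. The N2 value of glh-2 was then -0.06 (limma adjusted p = 0.953), and that of glh-4 had the opposite sign, 0.06 (limma adjusted p = 0.935). Without replicate 2 of the N2 20 °C mothers the N2 value of glh-2 was -0.23. In HC445 glh-2 was -0.15 without replicate 1 of the 25 °C mothers, -0.22 without replicate 2 of the 20 °C mothers and -0.58 without replicate 2 of the 25 °C mothers, and it passed with the scan day as a block (limma adjusted p = 0.0413). Single arrays also moved glh-4 in N2, to values between -0.12 and -0.34, none of which passed.

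The difference of the maternal-temperature effects between the strains (HC445 minus N2) was 0.07 for glh-1 (95% interval -0.58 to 0.72) and -0.03 for glh-2 (95% interval -0.68 to 0.62). These intervals are wider than the effects themselves, so the data do not show that the strains responded alike. By limma 0 of the 9 genes passed for this difference, and 0% of all probes. At an unadjusted p under 0.05 the count of the 9 genes was also 0, beside 1.22% of all probes tested.

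**Figure D3:**
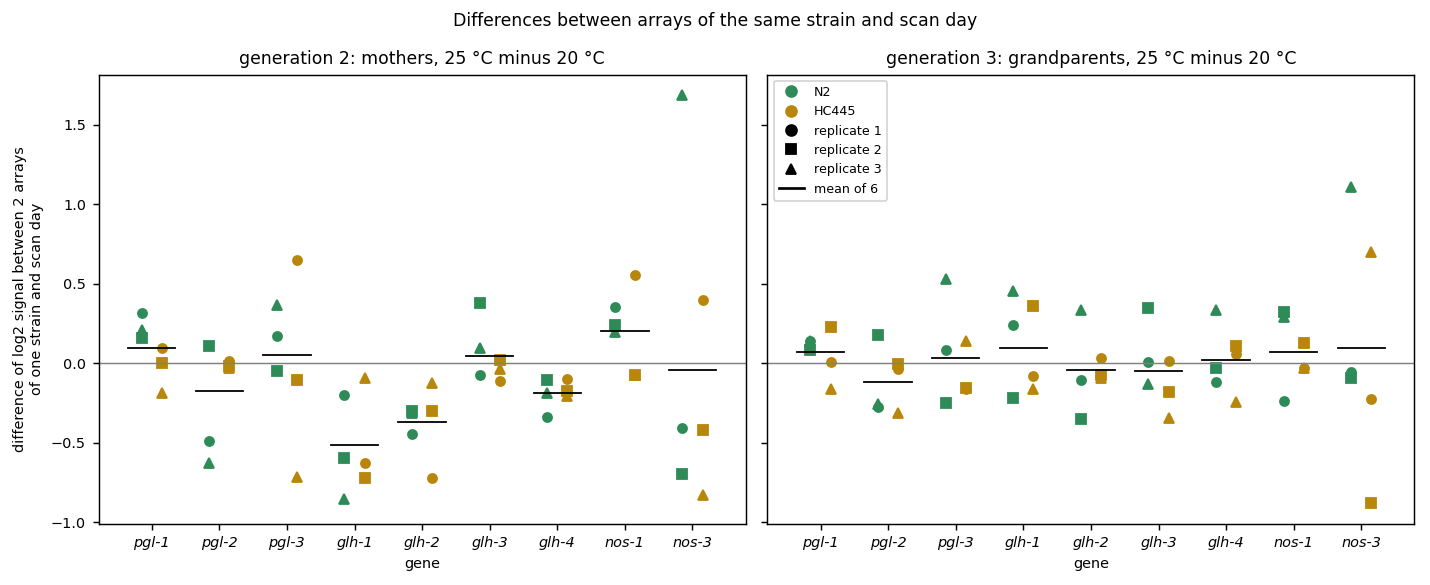
Differences in log2 signal (25 °C minus 20 °C) between 2 arrays of the same strain and scan day, 6 for each gene, by temperature of the mothers (left) and of the grandparents (right). Colour marks the strain, shape the replicate number, and the black line the mean of 6. All 6 points of glh-1, glh-2 and glh-4 lie below 0 on the left, and on both sides of 0 on the right.

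The second comparison asked whether a difference remained 1 generation later, when the mothers had been returned to 20 °C. None of the 9 genes passed for the temperature of the grandparents with both strains pooled (limma, Benjamini-Hochberg), against 0.284% of all probes tested. An unadjusted p under 0.05 was found for 0 of them, against 6.34% of probes. The same counts, 0 and 0, held in N2 (0.112% and 4.67% of probes) and in HC445 (0.0859% and 3.62%). The 9 log2 fold changes lay between -0.12 (pgl-2) and 0.10 (glh-1), with a median of 0.03, against -0.01 over all probes tested.

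In embryos with 25 °C grandparents glh-1 had log2 signals of 1.85, 1.89 and 1.87 in N2, against 1.60, 2.12 and 1.41 with 20 °C grandparents. HC445 embryos had 1.97, 2.22 and 2.13 with 25 °C grandparents, against 2.05, 1.86 and 2.29 with 20 °C grandparents. The arrays of 25 °C grandparents lay inside the range of the 20 °C arrays in both strains. The pooled log2 fold change was 0.10 ± 0.16 (SE; 95% interval -0.22 to 0.42), and 3 of 6 pairs were lower.

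The signals of glh-2 were 1.89, 2.24 and 2.15 in N2 with 25 °C grandparents, against 2.00, 2.59 and 1.81 with 20 °C grandparents. In HC445 they were 2.04, 2.37 and 1.87 with 25 °C grandparents, against 2.01, 2.45 and 1.96 with 20 °C grandparents. Here too the groups overlapped, with a pooled log2 fold change of -0.04 ± 0.16 (SE; 95% interval -0.37 to 0.28). For glh-4 it was 0.02 ± 0.12 (SE; 95% interval -0.22 to 0.26) and for glh-3 -0.05 ± 0.14 (SE; 95% interval -0.34 to 0.25).

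The scaffold and nanos genes did not pass either. The means of pgl-1 were 2.81 ± 0.05 with 25 °C grandparents and 2.73 ± 0.13 with 20 °C grandparents (SD, n = 6 each), a log2 fold change of 0.07 ± 0.07 (SE; 95% interval -0.08 to 0.22). In N2 the pgl-1 signals were 2.81, 2.74 and 2.82 with 25 °C grandparents, against 2.67, 2.65 and 2.68 with 20 °C grandparents. These groups did not overlap, which was not counted over all probes, but differed by only 0.12 ± 0.10 (SE; limma unadjusted p = 0.244). For pgl-2 the log2 fold change was -0.12 ± 0.11 (SE; 95% interval -0.34 to 0.10), for pgl-3 0.03 ± 0.22 (SE), and for nos-1 0.07 ± 0.11 (SE; 95% interval -0.14 to 0.29). The wide interval of nos-3, -0.57 to 0.75, covers changes of up to 1.69-fold upward. Its pooled value was 0.09. Dropping the replicate 3 array of N2 with 20 °C grandparents turned it to -0.12, and dropping that of HC445 turned it to -0.08.

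Effects of the 2 generations were then compared directly. The effect of 25 °C mothers minus that of 25 °C grandparents was -0.61 ± 0.22 (SE; 95% interval -1.07 to -0.16) on the log2 scale for glh-1, with an unadjusted p of 0.011 and a limma adjusted p of 0.12. It did not pass, and 0 of the 9 genes did, against 5.3% of probes. Only glh-1 had an unadjusted p under 0.05, against 16.9% of probes. The glh-1 value passed with the scan day as a block (limma adjusted p = 0.0399), with normexp background correction followed by quantile normalization (limma adjusted p = 0.0344) and once replicate 1 of N2 with 20 °C mothers was dropped (-0.76, limma adjusted p = 0.0204). With slide as a fixed block it had the opposite sign, 0.09 ± 0.17 (SE; limma adjusted p = 0.863). For glh-2 the difference was -0.32 ± 0.22 (SE; limma adjusted p = 0.52), and for glh-4 -0.21 ± 0.16 (SE; limma adjusted p = 0.605).

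The strains were compared with all ancestors at 20 °C, over both generations. None of the 9 genes passed for HC445 against N2 (limma, Benjamini-Hochberg), against 0.112% of all probes tested. An unadjusted p under 0.05 was found for 0 of them, against 5.41% of probes. Log2 fold changes (HC445 over N2) were 0.20 ± 0.16 (SE) for glh-1, 0.12 ± 0.07 (SE; 95% interval -0.03 to 0.27) for pgl-1, and between -0.04 and 0.17 for the other genes except nos-3. The value for nos-3 was 0.42 ± 0.32 (SE) with the N2 array at -4.40 and 0.03 ± 0.23 (SE) without it. The strain difference in the effect of the grandparents' temperature also gave 0 calls, with 0% of all probes passing. It gave 0 unadjusted p under 0.05, against 2.21% of probes. Between the 20 °C groups of generation 3 and of generation 2, 0 of the 9 genes passed, with 0% of all probes passing. An unadjusted p under 0.05 was found for 0 of them, against 3.15% of probes. Those log2 fold changes (generation 3 over generation 2) ran from -0.09 (glh-1) to 0.25 (nos-3), and without the array at -4.40 the nos-3 value turned to -0.14.

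The scan day accounted for much of what variation there was in several of these genes. Its share of the sum of squares over the 24 arrays was 65.2% for glh-3, 54.4% for glh-2, 52.4% for glh-4 and 47.3% for pgl-3, against a median of 22.6% over 10660 probes with a value on every array. The 8 groups held 31.1% of the sum of squares for glh-2, 19.2% for glh-4, 13.1% for glh-3 and 3.70% for pgl-3, against a median of 30.5% over the same probes. For 4 genes the groups held more than the scan day. The group and scan-day shares of these 4 genes were 50.2% and 16.6% for glh-1, 43.3% and 21.4% for pgl-1, 37% and 26.2% for pgl-2, and 26.7% and 3.64% for nos-1. The group share of nos-1 was below the median over all probes. For nos-3 the shares were 18.3% and 26.8%.

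The pattern over the scan days differed between these genes. The glh-3 signal was -0.53 ± 0.11 on the 8 arrays of replicate 3, against -0.11 ± 0.13 on those of replicate 1 and -0.23 ± 0.17 on those of replicate 2 (SD, n = 8 each). The glh-2 signal was high on the day of replicate 2, at 2.33 ± 0.18, against 1.86 ± 0.28 for replicate 1 and 1.89 ± 0.15 for replicate 3, and 1 array of the other days, at 2.15, was above the lowest of replicate 2, at 2.09. For glh-4 the means were 1.53, 1.66 and 1.34 for replicates 1, 2 and 3. Because each scan day held all 8 groups, these shifts widen the spread within groups without favouring 1 group. The arrays of a scan day also share their replicate number, so scan day and any earlier step shared by those pools cannot be told apart.

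**Figure D4:**
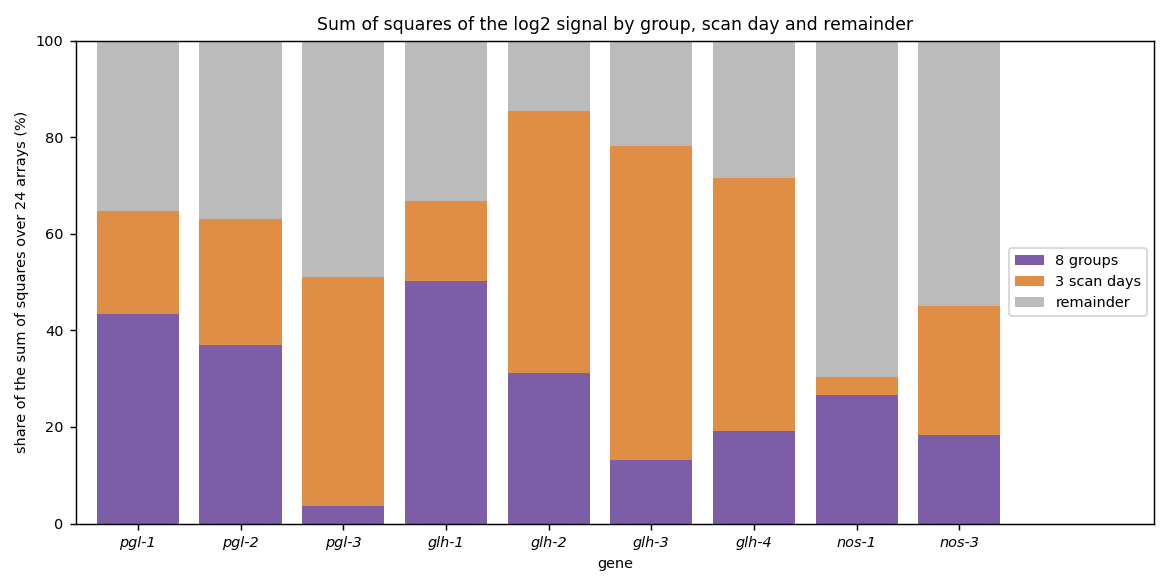
Share of the sum of squares of the log2 signal over 24 arrays, in percent, held by the 8 groups, by the 3 scan days and by the remainder, as stacked bars for each of the 9 genes. The scan day holds 65.2% for glh-3 and 54.4% for glh-2, while the groups hold the most, 50.2%, for glh-1.

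Among the 36 pairs of the 9 genes, Pearson's r over the 24 arrays had a median of 0.17 and ran from -0.58, for glh-1 with glh-3, to 0.70, for glh-2 with glh-4. The pair glh-2 and glh-4 had an r of 0.28 once the means of group and scan day had been taken out. These are descriptions only, since arrays of a scan day are not independent for these genes. The probes most like glh-1 over the 24 arrays, among 10659 searched, were WBGene00013238 (r = 0.89) and WBGene00010264 (r = 0.87). After 25 °C mothers they had log2 fold changes of -0.23 ± 0.09 (SE; limma adjusted p = 0.117) and -0.24 ± 0.11 (SE; limma adjusted p = 0.149), a direction that their choice by likeness to glh-1 over the same arrays largely sets. Those most like pgl-1 were WBGene00010741 (r = 0.77) and WBGene00021093 (r = 0.76), neither of which passed for the mothers' temperature (limma adjusted p = 0.419 and 0.488).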

How the data were processed

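The deposited array files hold the processed intensity of each spot, which is background-subtracted and detrended by the authors' scanner software, per the file headers (Agilent Feature Extraction 9.5.3.1). The same deposited output has flags of 0 or 1 (well above background, saturated, outlier). RNA went through 2 rounds of oligo-dT-primed amplification, per the labels' protocols. A deposited table of log2 values, with identical quantiles in every column, served as an alternative; the sources used here do not say how it was made.

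Outlier spots were set to missing and control spots left out. The log2 intensity, less that of the array's 75th percentile, was modelled in R 4.3.3 by limma 3.58.1 (8 group means, eBayes with trend, 16 residual degrees of freedom, two-sided). Tested were 11637 of 15208 probes, those well above background throughout at least 1 group, with Benjamini-Hochberg adjustment per comparison (11 comparisons, threshold 0.05, 95% intervals). The fit was tested on simulated data. With 3 arrays in a group, precision is limited. No 2 arrays held the same values (highest correlation 0.992).

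The genes and tests were chosen with earlier results of these data known. All 10 genes were to be named, with the 2 probes most correlated with each of pgl-1, glh-1 and nos-2. The reference gene table held 0 of the arrays' gene IDs, so lists of other germ plasm genes and of marker genes, fixed by name, were not tested, the embryo stage was not checked by markers, and no coordinates are given. Alternatives were normexp (offset 50, on median spot signals) followed by quantile normalization, quantile normalization alone, the deposited values, other filters, slide or replicate number as blocks, array weights, and leaving out arrays. Figures used matplotlib 3.10.9.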

Additional observations from a re-analysis of the deposited data

How the results depend on the processing

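The number of the 9 genes passing for the temperature of the mothers in both strains was 1 as reported, against 14% of all probes tested. It was 2 with slide as a random block, 2 with the replicate block, 0 with slide as a fixed block and 0 when the arrays noted for spike-in were dropped. It was 0 without any 1 of the 3 replicate numbers, and between 0 and 1 without single arrays. In N2 alone it was 0 as reported, against 5.47% of all probes tested, 1 with slide as a random block, and between 0 and 1 without single arrays. In HC445 alone it was 0 as reported, against 5.08% of all probes tested, and 1 with the replicate block. For the difference between the effects of mothers and grandparents it was 0 as reported, against 5.3% of all probes tested. It was 1 with normexp and quantile normalization, 1 with the replicate block, and between 0 and 1 without single arrays. The other 7 comparisons kept 0 in all 38 refits. How many of all probes passed also changed between settings, as given above for the scan-day block and the fixed slide term. For the other refits the share of all probes is not given here, so a change by 1 gene cannot be read as a gain or a loss. The counts alone thus say nothing particular about the 9 genes.

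The reported fit did not take the replicate number as pairing the arrays. Of 84 same-numbered pairs of arrays, 65 had a correlation of deviations over 0.1, the lowest being -0.23. All 24 arrays nevertheless correlated best with their own number, and each scan day held 1 array of every group, so the design also allows a block. The median correlation was 0.221 for same-numbered pairs and -0.118 for the other pairs between groups. The reported fit thus counts differences between scan days as spread within groups. The block, which is also the scan day, left the fold changes as they were and gave glh-1 an adjusted p of 0.0079 and glh-2 one of 0.00269 for the temperature of the mothers. Among the 98 values that did not pass, 8 of 3724 refitted values passed, and 333 had another sign than reported. Under quantile normalization the median of all probes for the mothers' temperature was 0.01, against -0.07 as reported, and glh-1 had -0.50 (adjusted p = 0.0137). With the deposited values it had -0.49 (adjusted p = 0.0138). With slide as a fixed block nos-3 had -1.02 (adjusted p = 0.131); the cause was not tested. Small changes are limited by the 3 arrays of a group.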
